A study of Mus musculus with 10 samples.

Results

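The regions described here are 285 places in the mouse genome where Dlx2 was called in the embryonic basal ganglia and in the olfactory bulb at both ages profiled, and in neither cortex library. The assay was ChIP-seq (chromatin immunoprecipitation followed by sequencing), in which DNA held by a fixed protein is recovered with an antibody and read. Called regions on chromosomes 1 to 19 and X from 5 lists were pooled and joined where they overlapped by at least 1 bp, which gave 18606 merged regions. Kept were those that contained regions of the basal ganglia list at embryonic day 16 (E16), the olfactory bulb list at E16 and the olfactory bulb list at postnatal day 3 (P3), and no region of the cortex lists at E16 or P3. Members were thus chosen by the authors' calls in these libraries, and the enrichment values in the 3 lists are given as a description with no test.

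The series holds 10 samples, of which 5 are Dlx2 immunoprecipitations and 5 are inputs (not analysed here), with 1 library per tissue and age. The groups are basal ganglia, cortex and olfactory bulb dissected at E16, and cortex and olfactory bulb at P3, all immunoprecipitated with an antibody to Dlx2. The labels give no genotype, strain, sex or number of animals for any group, so all of them are described only by tissue and age. These are nuclei of whole tissue pieces, so a region present in fewer cells and a region less occupied per cell cannot be told apart. The P3 cortex list is the only one whose peak names carry no mark of removed duplicate reads, and whether that bears on which regions it lacks was not tested. Read depth is unknown, and absence from a list means only that no call passed the authors' threshold there, not that Dlx2 was absent. With 1 library per group there is no spread between animals to set a difference against, and no p-value is given.

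Dlx2 is a homeodomain transcription factor of the progenitors and young neurons of the ganglionic eminences, the embryonic source of most forebrain GABAergic neurons. Dlx proteins bind short AT-rich sequences built on the homeodomain core ATTA, often as the palindrome TAATTA. Neuroblasts born in the ventral telencephalon migrate along the rostral migratory stream into the olfactory bulb, where they become granule and periglomerular interneurons, and this supply continues after birth. The cortex also receives GABAergic interneurons from the same source, but most of its neurons are glutamatergic and come from dorsal progenitors that lack Dlx2.

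Only 2 member regions reached a RefSeq promoter window, defined as 250 bases before to 50 bases after an annotated start, and their sequences are shown because they are the places where letters could be read beneath a member. Both windows belong to predicted long noncoding RNA genes of unknown function. Capitals mark every match to the palindrome TAATTA, to its variant TAATTG and to the core ATTA on either strand, and the build is GRCm38.p6.

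Gm52576, whole window, chr2:47834114-47834413, minus strand: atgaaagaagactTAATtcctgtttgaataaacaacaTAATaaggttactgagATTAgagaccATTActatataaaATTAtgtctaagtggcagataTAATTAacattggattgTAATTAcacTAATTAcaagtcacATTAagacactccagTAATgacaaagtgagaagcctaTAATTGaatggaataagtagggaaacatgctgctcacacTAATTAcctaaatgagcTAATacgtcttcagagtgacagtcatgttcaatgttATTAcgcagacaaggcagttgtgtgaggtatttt

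Gm30290, the part within the member, chr12:26877393-26877520, plus strand: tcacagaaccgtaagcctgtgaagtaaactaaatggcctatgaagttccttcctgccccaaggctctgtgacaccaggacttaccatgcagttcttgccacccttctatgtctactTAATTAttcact

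The member over the Gm52576 window spanned chromosome 2 from 47833958 to 47834804, with a fold enrichment of 11.6 in the basal ganglia, 6.72 in the E16 bulb and 9.19 in the P3 bulb. Its window held 4 copies of TAATTA, 1 of TAATTG and 18 matches to the core, which lies inside TAATTA and TAATTG as well, so these counts overlap. The copies of TAATTA lay 150, 133, 124 and 34 bp upstream of the annotated start, and 31, 14, 5 and 85 bp from the E16 bulb summit. From the basal ganglia summit they lay 14, 3, 12 and 102 bp, and from the P3 bulb summit 47, 30, 21 and 69 bp. All 3 summits thus fell beside the same group of palindromes. Of all 32851 promoter windows, 5.29% held TAATTA at least once, 8 windows (0.0244%) held it at least 4 times, and 3 windows had at least 18 core matches. The window was also AT-rich, with a GC content of 32.7% against a median of 52.7% over all windows. In the Gm30290 window the member, on chromosome 12 from 26877393 to 26878292, covered 128 bases with 1 TAATTA, 416 bp from the E16 bulb summit. Its fold enrichment was 11.0 in the basal ganglia, 4.95 in the E16 bulb and 7.01 in the P3 bulb. Of all windows, 1.62% held TAATTA in a stretch of that length at the same end. A match is a description of the sequence and does not show a bound site.

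The share of each list that fell in members followed the length of the list. Members took in 285 of 14732 basal ganglia regions (1.93%, exact Clopper-Pearson 95% interval 1.72 to 2.17), 289 of 1665 E16 bulb regions (17.4%, 15.6 to 19.3) and 286 of 732 P3 bulb regions (39.1%, 35.5 to 42.7). These intervals cover counting error only. With every list cut to the 734 regions of the shortest, the shares were 13.8%, 13.6% and 13.7%. Lists of equal length had to give near-equal shares, because nearly every member takes 1 region from each list. The cut therefore says nothing further about the contrast between the lists. A further 124 merged regions were in the same 3 lists and in a cortex list as well, 29 of them with the E16 cortex alone, 62 with the P3 cortex alone and 33 with both. Another 615 were in the basal ganglia and E16 bulb lists only. In 281 of the 285 members each list contributed a single region. Merged width ran from 357 to 1935 bp with a median of 619 bp, and 27 members were wider than 1 kb. Every chromosome used held members, from 3 on X to 29 on chromosome 2, where the background of merged regions was also highest at 1638.

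In the basal ganglia the members came largely from the strong end of the list. Each list was ordered by −log10 q, the authors' significance of a region, and cut into 5 equal parts. The strongest part of the basal ganglia list held 183 of the 285 member regions and the weakest 4. In the E16 bulb list the strongest part held 128 (38.4% of its regions, 33.2 to 43.9) and the weakest 14 (4.20%, 2.32 to 6.95). In the P3 bulb list the members were spread over the order, from 63 in the strongest part (43.2%, 35.0 to 51.6) to 45 in the weakest (30.6%, 23.3 to 38.7).

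Fold enrichment, deposited by the authors as summit signal divided by the local background, followed the same pattern. Members had a median of 8.11 in the basal ganglia (lowest 2.66, highest 25.6), where the whole list had 4.55. In the E16 bulb the median was 6.56 (2.95 to 18) against 5.25 for the list, and in the P3 bulb it was 6.04 (2.94 to 18.1) against 5.69. The plot of fold enrichment by list shows the members shifted upward in the basal ganglia and close to the whole list in the P3 bulb. A value above the median of its own list was found for 254 members in the basal ganglia, 211 in the E16 bulb and 155 in the P3 bulb, and for 112 in all 3. Regions in the same 3 lists and a cortex list were stronger, with medians of 12.3, 7.0 and 6.46 in that order. Regions in the basal ganglia and E16 bulb only were weaker, at 7.43 and 4.97. The values come from separate libraries, so ranks within a list are the safer guide across tissues.

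**Figure D1:**
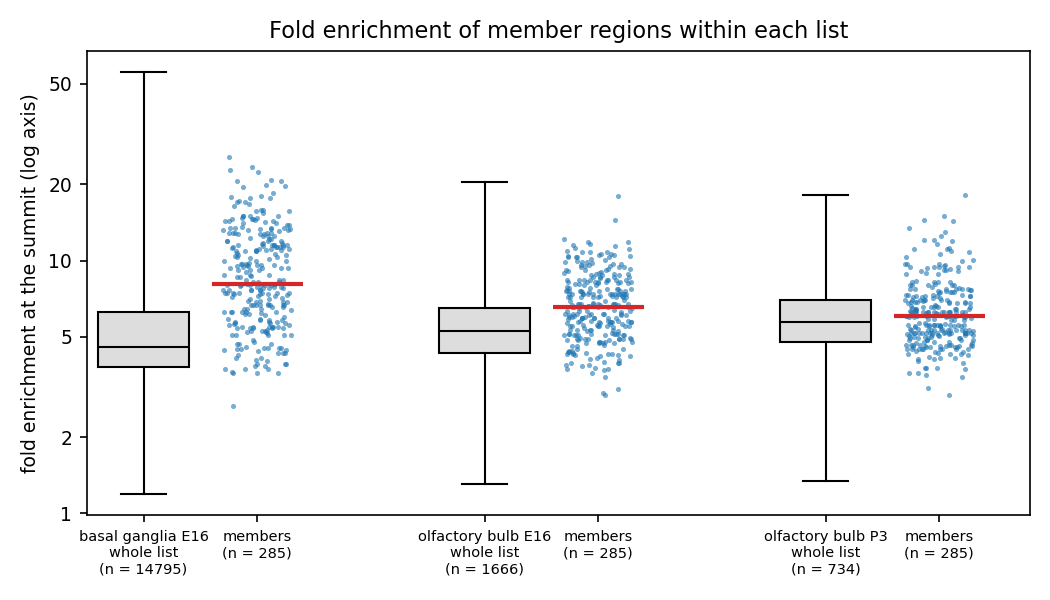
Fold enrichment at the summit (vertical log axis) for each whole list, drawn as a grey box of the quartiles with whiskers to the lowest and highest region, and for the 285 members as blue points with their median as a red line; whole lists include the few regions on other chromosomes. The member median is 8.11 against 4.55 in the E16 basal ganglia, 6.56 against 5.25 in the E16 bulb and 6.04 against 5.69 in the P3 bulb.

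The 3 libraries placed their summits, the points of highest signal, close together within a member. The basal ganglia summit lay a median of 31 bp from the E16 bulb summit, with 253 of 285 within 100 bp and the farthest at 569 bp. The P3 bulb summit lay a median of 40 bp from the E16 bulb summit, with 243 within 100 bp and the farthest at 400 bp. All 3 summits fell within 200 bp of each other in 266 members. For regions shared with a cortex list the same medians were 35 and 47 bp, and for regions in the basal ganglia and E16 bulb only the basal ganglia summit was 43 bp away. Close summits were therefore not particular to the members.

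**Figure D2:**
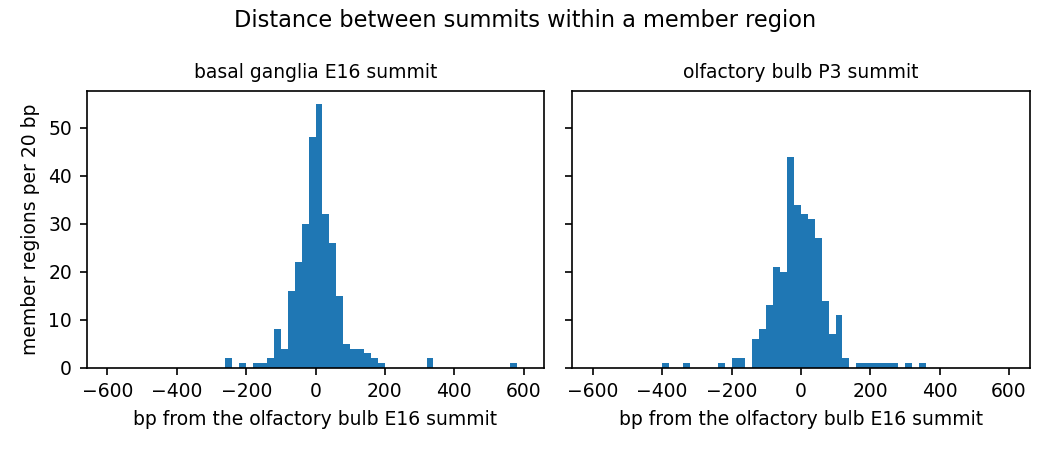
Number of members (vertical axis, per 20 bp) by the distance in bp of the basal ganglia summit (left) and of the P3 bulb summit (right) from the E16 bulb summit in the same member. Both are centred near 0, with 253 and 243 of the 285 members within 100 bp.

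Fold enrichment of the members was weakly correlated between libraries, and most so between the bulb at E16 and at P3. Over the 285 members, log2 fold enrichment at E16 and at P3 in the bulb had a Pearson r of 0.36 and a Spearman rho of 0.30. Between the basal ganglia and the E16 bulb r was 0.23 (rho 0.22), and between the basal ganglia and the P3 bulb 0.10 (rho 0.10). These are correlations across regions that share their libraries and the calling threshold, and all were selected for a call in each list. The peak names of the E16 bulb list follow a different pattern from those of the P3 bulb list and of the basal ganglia list, so a difference in handling and a difference of tissue or age cannot be told apart.

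The strongest members were ordered by the summed rank of −log10 q over the 3 lists, a sum in which the long basal ganglia list weighs most. The first was a region of chromosome 7 (131464826 to 131465583), 18.9 kb outside Acadsb, which encodes a mitochondrial acyl-CoA dehydrogenase. Its fold enrichment was 25.6 in the basal ganglia, 18 in the E16 bulb and 18.1 in the P3 bulb, the highest of all members in each list. It ranked 77, 2 and 2 in the lists. Next came a region 27.3 kb outside Tmem260 (17.2, 10.4 and 7.28, in the order basal ganglia, E16 bulb, P3 bulb). It was followed by a region 56.6 kb outside Nectin1, a cell adhesion gene, with 15.0, 8.50 and 14.3 in the same order.

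A member within Erbb4, the neuregulin receptor gene that guides migrating interneurons, was strong in all 3 lists. It covered chromosome 1 from 68666577 to 68667389, 441 kb downstream of the nearest annotated start of a gene of 1077 kb. Its fold enrichment was 15.4 in the basal ganglia, 11.6 in the E16 bulb and 11.1 in the P3 bulb. A P3 cortex region lay 13.2 kb away within the same gene, so the cortex is not without a call at Erbb4. The region 60.7 kb outside Nkx2-1, the homeodomain gene of the medial ganglionic eminence, had 22.8, 10.5 and 5.99. It ranked 113 in the basal ganglia, 52 in the E16 bulb and 323 in the P3 bulb. Within Pard3b, a cell polarity gene, the values were 15.6, 14.5 and 8.88. Efna5, an ephrin ligand gene of axon guidance, held a member with 16.5, 7.38 and 7.49.

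The 30 strongest also included regions whose containing or nearest genes encode receptors, a G protein subunit, kinases and a corepressor. They are grouped here by known role, with no share over all members beside them. Grm4, a metabotropic glutamate receptor gene, had 18.5 in the basal ganglia, 8.08 in the E16 bulb and 5.18 in the P3 bulb. Gnao1, which encodes a G protein alpha subunit abundant in neurons, had 15.8, 5.77 and 12.5, and ranked 387 in the basal ganglia, 351 in the E16 bulb and 14 in the P3 bulb. The member within Tgfbr3, a co-receptor gene for TGF-beta ligands, had 17.8, 7.4 and 7.74, and that within the calcium-dependent kinase gene Camk4 had 14.3, 10.5 and 7.49. The region 1.84 kb outside Fzd8, a Wnt receptor gene, had 12.5, 9.91 and 10.1. Near Tle3, a Groucho-type corepressor gene, the values were 13.3, 6.51 and 12.1 at a distance of 15.8 kb, and near Unc5d, a netrin receptor gene, 15.0, 5.78 and 9.47 at 325 kb. Brsk2, a kinase gene of neuronal polarity, held a member with 13.3, 9.41 and 12.1.

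The other named genes at the 30 strongest were Sdk2, Tuba3b, Ccdc39, Psat1, Vstm2b, Ptprc, Bnc2, Runx1t1, Emp2, Pag1, Zfp608 (for 2 regions), Mad1l1, Cacna1c and Cyld. Of the 30, 12 had their summit within a protein-coding gene and 18 outside, and a nearest gene need not be the gene a region acts on. Ptprc, a leukocyte gene, lay 224 kb from its region. In the basal ganglia the 30 had a fold enrichment of 12.5 to 25.6, and their choice leans on the rank there. Over all members the basal ganglia value was highest in 182, the E16 bulb value in 59 and the P3 bulb value in 44.

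Some members stood at different places in the order at the 2 ages of the bulb. By rank of fold enrichment among the 285 members, those placed highest at E16 relative to P3 were the regions near Pdha2 (11.2 at E16 and 4.08 at P3), the cystine transporter gene Slc7a11 (9.20 and 3.61), BC052040 (9.15 and 3.76), Nsun3 (9.61 and 4.28) and Ccdc39 (10.3 and 4.64). Those placed highest at P3 relative to E16 were near Optc (3.82 at E16 and 8.0 at P3), near Gm6569 (2.95 and 7.57), near Samd5 (3.85 and 7.74) and near Pag1 (4.84 and 9.71), and within Dnajc6, which encodes the clathrin uncoating factor auxilin (3.94 and 7.34). Both groups included members that were strong in the basal ganglia, such as Ccdc39 (22.3) and Pag1 (17.0). These pairs were picked for their difference and have 1 library per age.

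**Figure D3:**
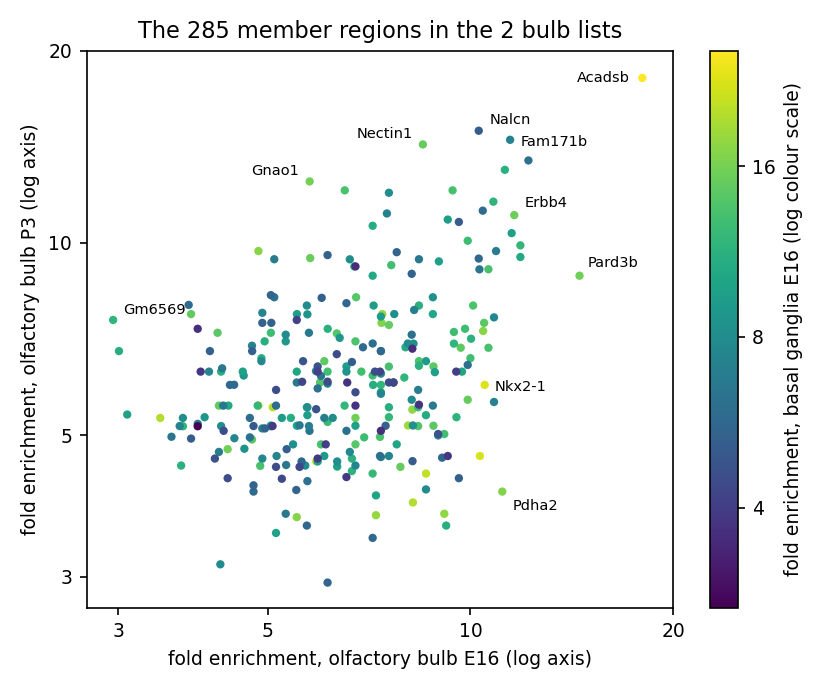
Each point is one of the 285 members, placed by its fold enrichment in the E16 bulb (horizontal log axis) and the P3 bulb (vertical log axis) and coloured by its fold enrichment in the basal ganglia. Acadsb stands highest on both axes (18 and 18.1), and the cloud is broad, with r of 0.36 on the log2 scale.

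Most members lay far from promoters. Placed by the E16 bulb summit, 136 of 285 (47.7%, 41.8 to 53.7) were within a protein-coding gene, 28 (9.82%) within another annotated gene only and 121 (42.5%, 36.6 to 48.4) outside genes. The gene table gives no exons, so intron and exon cannot be separated. A gene boundary lay within 1 kb of 13 members (4.56%, 2.45 to 7.67). The same share was 24.2% (17.0 to 32.7) for regions shared with a cortex list and 15.4% (12.9 to 18.3) for the whole P3 bulb list, both clear of the members' interval, and 7.97% (5.95 to 10.4) for regions in the basal ganglia and E16 bulb only, whose interval overlaps it. No animals stand behind these intervals, only counts of regions.

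Distances to annotated starts were taken over the 273 members outside chromosome 18, for which no promoter windows were used here. Just 2 of the 273 overlapped a promoter window (0.733%, 0.0888 to 2.62), against 13 of 118 regions shared with a cortex list (11.0%, 6.0 to 18.1), 18 of 593 in the basal ganglia and E16 bulb only (3.04%, 1.81 to 4.75) and 52 of 703 P3 bulb regions (7.4%, 5.57 to 9.59). A summit within 10 kb of a start was found for 37 members (13.6%, 9.73 to 18.2), against 18.2% (15.2 to 21.6) of those in the basal ganglia and E16 bulb only, 20.9% (18.97 to 23.0) of the E16 bulb list, 29.7% (21.6 to 38.8) of the regions shared with a cortex list and 34.3% (33.5 to 35.1) of the basal ganglia list. The interval of the members overlaps the first of these. When every list was cut to the length of the shortest, the members' share was 23.4% (15.3 to 33.3). To any annotated start, the median distance was 51.5 kb for members and 45.7 kb for regions in the basal ganglia and E16 bulb only. It was 24.9 kb for regions shared with a cortex list, 42.7 kb for the E16 bulb list and 22.5 kb for the basal ganglia list. The median distance to a protein-coding start was 113 kb for members, 69.1 kb for regions shared with a cortex list, 121 kb for regions in the basal ganglia and E16 bulb only and 50.6 kb for the basal ganglia list. More than 100 kb separated 149 members (54.6%, 48.5 to 60.6) from such a start, and 56.3% (52.2 to 60.4) of the regions in the basal ganglia and E16 bulb only. By these measures of protein-coding starts the members were not farther out than those regions. Starts were at hand for 17274 of the 21631 protein-coding genes, so some distances run past a nearer gene and are too long. The region 143 kb outside Runx1t1, for example, was measured to Prdm13, at 8086 kb. Promoter overlaps can be missed for the same reason, and the gap applies to every set compared. The rule removes every region that meets a cortex region, and summits lay outside genes in 9.04% of the E16 cortex list (8.34 to 9.77) and 43.4% of the P3 cortex list (41.3 to 45.5). The part of that removal in the members' location was not tested.

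**Figure D4:**
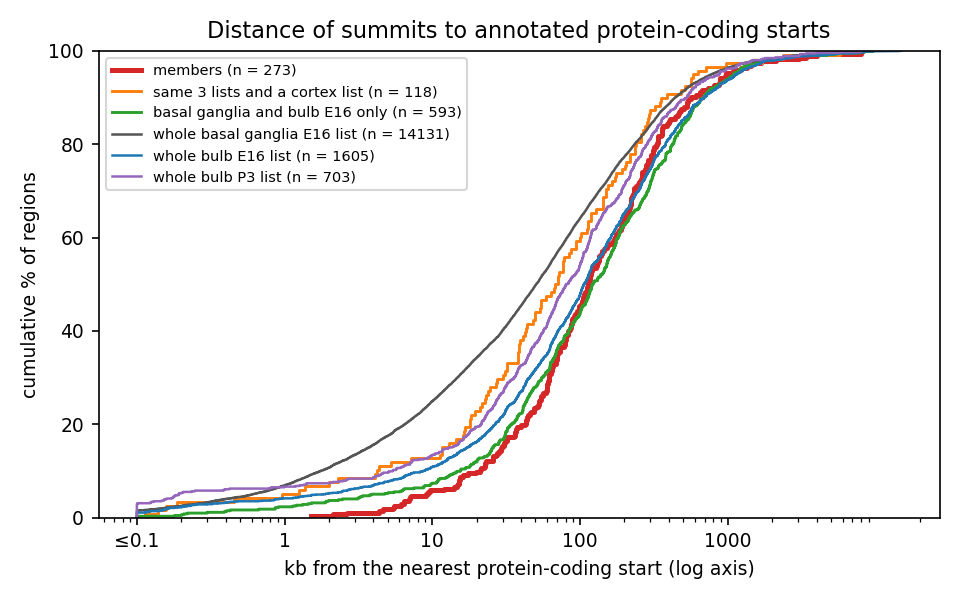
Cumulative percentage of regions (vertical axis) by distance in kb from the E16 bulb summit, or from a list's own summit for whole lists, to the nearest annotated protein-coding start (horizontal log axis, values under 0.1 kb drawn at 0.1). The member curve (red) lies below that of the regions shared with a cortex list (orange) and of the basal ganglia list (grey), with medians of 113, 69.1 and 50.6 kb. Starts were at hand for 17274 of 21631 protein-coding genes, so some distances in every curve are too long.

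The genes that held members were long, as were those around E16 bulb regions. The 136 members inside protein-coding genes sat in genes with a median length of 272 kb, against 98.2 kb for the genes around all basal ganglia regions and 220 kb for those around E16 bulb regions. The upper quartile was 440 kb for members and 456 kb for E16 bulb regions. These medians count a gene once per region. Counted once per gene, the median was 17.3 kb over all protein-coding genes and 220 kb over the 147 with a member inside or within 10 kb. The 149 members outside such genes lay a median of 111 kb from the nearest one, with a range of 0.805 to 1323 kb. Members were scattered singly along the chromosomes. Only 3 pairs lay within 100 kb of each other, near Tshz2, near Pik3r1 and within Btbd9, and the Pik3r1 pair was the tightest, spanning 4.63 kb. The genes Btbd9, Dgkb and Otud7a held 2 members each. Within Otud7a, a deubiquitinase gene, one member had 9.53, 11.5 and 10.4 in the basal ganglia, E16 bulb and P3 bulb, and the other 6.16, 5.73 and 4.23. Another basal ganglia region lay within 50 kb of 144 members (50.5%), compared with 71.3% for the 14732 basal ganglia regions.

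At the level of genes, 147 of 21631 protein-coding genes (0.68%) had a member summit inside the gene or within 10 kb of it. Among the 2427 genes over 100 kb the share was 105 (4.33%), so gene length bears on every list of long genes below. By the same measure the whole lists reached 26.7% of genes in the basal ganglia, 3.63% in the E16 bulb and 2.06% in the P3 bulb. The regions shared with a cortex list reached 0.351% and those in the basal ganglia and E16 bulb only 1.22%. In the account that follows, values of fold enrichment are in the order basal ganglia, E16 bulb and P3 bulb.

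Genes of GABA synthesis and transport had 2 of 7 with a member. By the same measure 5 of the 7 had a basal ganglia region, 4 an E16 bulb region and 3 a P3 bulb region. The E16 cortex list had a region at 4 of them and the P3 cortex list at 1. Gad2 encodes the glutamate decarboxylase that supplies GABA at synapses. Its member covered chromosome 2 from 22619305 to 22620813, was 1509 bp wide, and had its E16 bulb summit 2.12 kb upstream of the annotated start and 0.805 kb outside the gene. That summit also lay 1.96 kb outside Myo3a, so the region is not assigned to Gad2 alone. The fold enrichment there was 13.4, 6.75 and 7.01, with all 3 summits within 22 bp of each other. An E16 cortex region lay 2775 bp away, so the cortex is not without a call at this gene. Abat encodes GABA transaminase, which breaks GABA down, and its member on chromosome 16 (8539035 to 8539631) had 7.62, 6.62 and 4.70.

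Sox6 and Zfhx3 were the regulators of the GABAergic lineage with a member. Of 38 transcription factors of the ganglionic eminences and their descendants, 36 had a basal ganglia region by this measure, and 2 had a member (5.26%, beside 0.68% of all protein-coding genes and 4.33% of those over 100 kb). The list has a median gene length of 38.5 kb, and the count was 4 when regions needed a −log10 q of at least 5. Sox6, an SRY-box factor gene of medial ganglionic eminence interneurons, held a member with 3.58, 8.20 and 6.83, weak in the basal ganglia and stronger in both bulb lists. It lay 276 kb downstream of the start, on chromosome 7 from 115524985 to 115525546. Zfhx3, a zinc finger homeobox gene, held one with 8.07, 6.24 and 5.32. None of the 6 Dlx genes had a member, although 5 had a basal ganglia region, 4 an E16 bulb region, 2 a P3 bulb region and 4 a region of each cortex list. The count was also 0 for 16 genes of olfactory bulb interneurons, 15 of striatal projection neurons, 13 of cortical interneuron subtypes, 18 of the Notch pathway and neurogenesis and 20 of the cortical glutamatergic lineage. The bulb lists themselves reached few of these genes, which left little room for a member. The E16 and P3 bulb lists had a region at 3 and 2 of the bulb interneuron genes and at 5 and 1 of the striatal genes. They reached 2 and 1 of the cortical interneuron genes, 2 and 0 of the Notch list and 3 and 2 of the glutamatergic list. The E16 cortex list, which the rule removes, had a region at 18 of those 20. These lists are small, and at 0.68% a list of 20 genes would hold less than 1 such gene.

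Migration and guidance genes had 6 of 36, a list whose median gene length is 187 kb. Pard3b was added to it with earlier results of these data known. By the same measure 31 of the 36 had a basal ganglia region, 19 an E16 bulb region and 12 a P3 bulb region. Each cortex list had a region at 10 of them. Besides Erbb4, Efna5 and Pard3b, described above, the genes with a member were Nrg3, Slit3 and Dab2ip. Nrg3 encodes a neuregulin ligand of Erbb4, and its member, also inside the overlapping gene Gm31606, had 3.82, 3.98 and 6.29, below the members' median in both E16 lists and above it in the P3 bulb. Slit3, a gene for a secreted guidance cue read by Robo receptors, had 6.25, 4.70 and 4.96, and Dab2ip, a Ras GTPase-activating protein gene linked to neuronal migration, had 4.50, 5.14 and 4.46. Receptor and ligand of this neuregulin pair each held a member, but the Nrg3 member was weak at E16. Its values there were below the medians of the whole lists, 4.55 in the basal ganglia and 5.25 in the E16 bulb. Erbb4 is 1077 kb long, and 4.33% of genes over 100 kb had a member. A link between the 2 members was not tested.

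Channel genes had 5 of 21, with a median list length of 302 kb, and Nalcn was put on that list with earlier results known. By the same measure 14 of the 21 had a basal ganglia region, 7 an E16 bulb region and 6 a P3 bulb region. The E16 cortex list had a region at 4 of them and the P3 cortex list at 7. Nalcn encodes the sodium leak channel that helps to set resting potential. Its member, on chromosome 14 from 123566131 to 123567031, had 5.08, 10.3 and 15.0, and its 3 summits lay within 14 bp. It was among the highest P3 bulb values of any member and below the members' median in the basal ganglia. Cacna1c, an L-type calcium channel gene, showed 14.1, 6.76 and 8.22. The auxiliary calcium channel subunit genes Cacna2d1 and Cacna2d3 had 8.02, 3.74 and 5.32, and 20.9, 5.90 and 4.55. Kcnd2, a gene for an A-type potassium channel, had 9.70, 4.59 and 6.29. The Cacna2d3 and Nalcn members are thus opposite in kind, one highest in the basal ganglia and the other in the P3 bulb.

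Synaptic adhesion genes had 2 of 20 (median length 459 kb) and ionotropic glutamate receptor genes 2 of 14 (349 kb). Il1rapl1, a synaptic organiser gene on X, held a member with 8.40, 8.80 and 8.22, nearly level over the lists. Grik1, a kainate receptor subunit gene, had 4.30, 7.69 and 6.04. None of 13 GABA-A receptor subunit genes had a member. Both bulb lists had a region at 0 of the 13, so this count could only be 0. The lists of oligodendrocyte, astrocyte, microglial, vascular (endothelial and mural) and liver and muscle markers had 0 of 8 each, and ubiquitous genes 0 of 15. By the same measure the whole basal ganglia list had a region at 3 of the oligodendrocyte, 3 of the microglial and 1 each of the astrocyte, vascular and liver and muscle markers, and at 9 of the ubiquitous genes. Each bulb list had a region at 1 astrocyte marker and at 0 of the others.

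**Figure D5:**
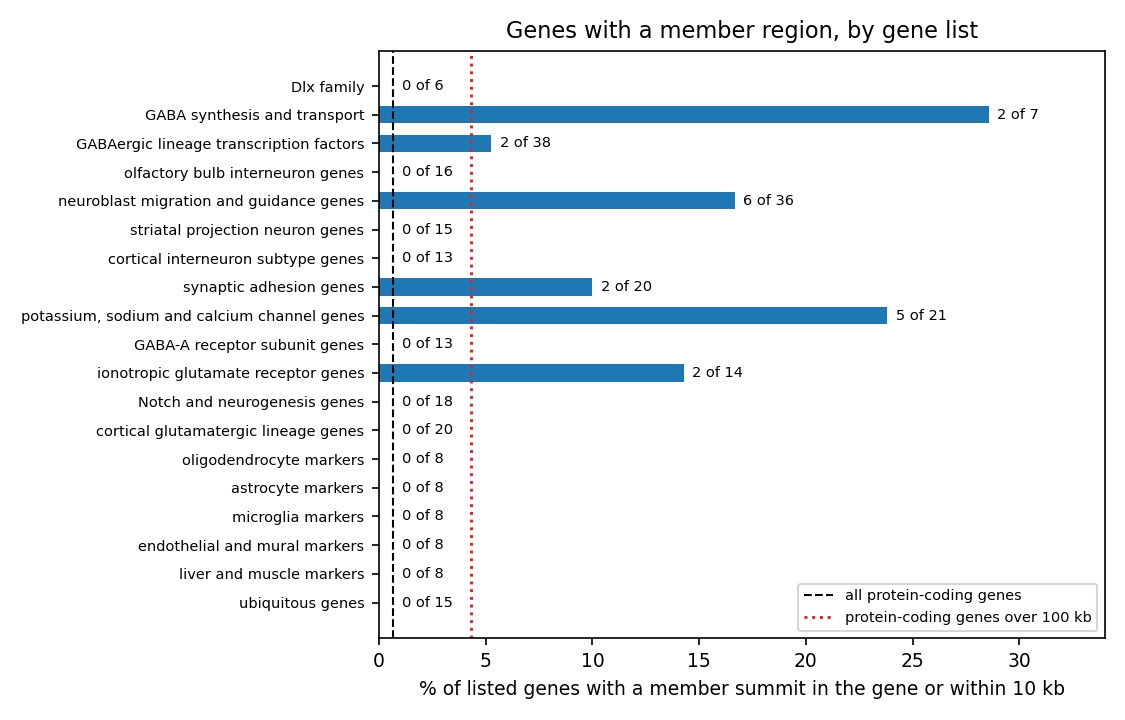
Percentage of the genes of each list (bars, from 0) with a member summit in the gene or within 10 kb, with the count beside each bar; the dashed line is the share of all protein-coding genes (0.68%) and the dotted line that of genes over 100 kb (4.33%). GABA synthesis and transport (2 of 7), channels (5 of 21) and migration and guidance (6 of 36) have the longest bars, and 13 lists have none. Nalcn, counted among the channels, and Pard3b, counted in migration and guidance, were listed with earlier results of these data known. Earlier results also guided the listing of Shtn1, Nectin1, Kcnn2, Kcng1, Kcnk1, Dscaml1 and Ptprs, none of which had a member by this measure. All the lists were chosen with those results known, so the bars are not independent of the data they describe.

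At the edges of the rule, the smallest direct overlap between lists within a member was 104 bp, near Cd180, followed by 144 bp near Pdgfrl and 151 bp near Gm11232. The nearest cortex region to a member lay 619 bp away, in the P3 cortex list near Tmem182, then 1452 bp near Tmem44 and 2156 bp near Fzd8, both in the E16 cortex list. In all, 1 member had a cortex region within 1 kb, 14 within 10 kb and 89 within 100 kb. Just outside the rule, regions of the basal ganglia and E16 bulb lists missed a P3 bulb region by 791 bp near St3gal3, 794 bp near Zfp618 and 1142 bp near Cacna1c. A region near App was left out because it met an E16 cortex region by 58 bp, with 6.06, 4.76 and 4.64.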

How the data were processed

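The authors deposited 1 narrowPeak list per immunoprecipitated library. Trimmomatic, Bowtie2, SAMtools, MACS2 and the build mm10 are the tools and build given, with no version, per the submitters' processing notes. The threshold, control and depth of each call are not given in the sources. Per the labels' protocols, formaldehyde-fixed chromatin was sonicated and read as single-end 50-nt reads. The deposited fold enrichment is a ratio at the summit, the deposited significance is −log10 of the p-value and q-value, and the deposited score was not used. These values describe and rank regions within their own list. The authors' peak names mark removal of duplicate reads in 4 of the 5 lists, the P3 cortex list being the exception. No locus prone to artifact signal was removed.

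Of 25667 regions, 115 off chromosomes 1 to 19 and X were left out. Merging and all counts were made with Python 3.11.15, numpy 2.4.6, scipy 1.17.1 and pandas 2.3.3. Merging was tested only on simulated sites set too far apart to touch, so close neighbours and slight overlaps were not covered. Members were placed by the E16 bulb summit, and a gene had a member when a summit lay in it or within 10 kb. Genes and promoter windows are from RefSeq tables of GRCm38.p6, which hold 21631 protein-coding genes on the chromosomes used and windows for 17274 of them; no member overlapped one of the 1005 miRNA hairpins of the tables. Since no genome was used, motifs were read only in promoter windows. Named genes are those at the 30 members lowest in summed rank of −log10 q, the genes of the neuronal lists with a member, genes with 2 or more members, the 5 members each way that changed rank most between the bulb ages, and members at the edges of the rule; 2 of these genes are not reported here. The members and the gene lists were chosen with earlier results of these data known. Besides Pard3b and Nalcn, these results also guided the listing of Shtn1, Nectin1, Kcnn2, Kcng1, Kcnk1, Dscaml1 and Ptprs. The alternatives were overlap, summit distance, q, list length, width, cortex distance, gene type, summit used and gene extension.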

Additional observations from a re-analysis of the deposited data

How the results depend on the processing

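Of 127 recomputed values of 19 results under 11 settings, 110 stayed within the interval of the value first given or, for counts, within 1.5 times of it. The settings of gene type, summit used and gene extension kept the same 285 members. Several others kept nearly the same members, so many values could move little. Most of the 17 values that moved came from cutting the lists to equal length. Cutting each list to its 734 regions highest in −log10 q left 100 members, of which 61 overlapped one of the 285. These held 13.8% of the basal ganglia, 13.6% of the E16 bulb and 13.7% of the P3 bulb regions, had a median fold enrichment of 15.0 in the basal ganglia and 8.06 in the E16 bulb, and median widths of 855.5, 534 and 405.5 bp in the same order as the shares. With these, 23.4% of members were within 10 kb of a start, 47 genes had a member, 1 gene had 2 or more, and 0 members had a neighbour within 100 kb. Requiring −log10 q of at least 5 gave 264 members, a basal ganglia share of 2.26% and 4 of the 38 lineage transcription factors. With protein-coding genes only, 52.3% of members were outside genes, and with genes extended by 50 kb 257 genes had a member. Requiring an overlap of at least 50% of the shorter region gave 285 members, summits within 200 bp gave 266, leaving out regions wider than 1 kb gave 264, and leaving out members within 1 kb of a cortex region gave 284. The motif shares at summits and their alternative windows were not run, because no genome was used. No paired analysis was possible because each group has 1 library and no result comes from a test between groups. Depth is unknown, so the length of a list and the members it can yield may differ with sequencing; this was not tested.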

Other observations

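Further genes with a member, named here after their values were seen and for their known roles, with fold enrichment in the order basal ganglia, E16 bulb and P3 bulb, include receptor genes of growth and survival signals. Gfra1, the GDNF co-receptor gene, held one with 7.65, 10.8 and 7.64, and Alk, a receptor tyrosine kinase gene, one with 9.49, 9.25 and 10.9. Ptk7 and Ror2, receptor genes of noncanonical Wnt signalling, differed in kind: Ptk7 had 5.86, 10.4 and 11.2, and Ror2 had 12.2, 6.14 and 5.24. Oprm1, the mu opioid receptor gene, had 15.6, 6.75 and 5.32. The transcription factor genes Zfp423 (9.97, 7.77 and 4.83), Klf12 (5.86, 5.14 and 5.56), Rfx3 (4.38, 5.25 and 4.27) and Eya2, a cofactor gene (9.42, 8.86 and 6.27), also held members. Gng4, a G protein gamma subunit gene, had 5.08, 9.61 and 10.8, and the region 8.57 kb outside Nptx2, a neuronal pentraxin gene, had 8.01, 7.57 and 12.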
